A study of Mus musculus with 16 samples.

Results

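A set of 10 genes of the Wnt pathway was followed through the RNA libraries of a mouse reprogramming study, out of 20325 named genes in the deposited tables. They were chosen by symbol for their place in the pathway, with earlier results of these data known. Axin2, Nkd1, Nkd2 and Lef1 act inside the cell, Lgr5 is a receptor at the surface, and Sfrp1, Sfrp2, Dkk2, Dkk3 and Wif1 are secreted. All 10 were found in every library. The question here is how this group of feedback genes and antagonists was set in embryonic stem cells, in fibroblasts and on day 3 of reprogramming, and how it differed after c-Jun, its dominant-negative form, Jdp2 or Oct4 was introduced.

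There were 13 RNA libraries, 1 per group, so no difference below has a replicate check and no p-value is given. All cells were OG2 transgenic, on a mixed 129SVJ, C57B6 and CBA background whose CBA fraction is written differently from label to label. Embryonic stem cells (ESC) at passage 5 gave 3 libraries, namely WT and a TetOn c-Jun line taken with doxycycline for 36 h or without it. Embryonic fibroblasts (MEF) at passage 2 gave 6 libraries, namely WT and cultures that overexpressed DR, c-Jun, c-JunDN, Jdp2 or Oct4. The time after introduction is not given for these. MEF that received Klf4, Sox2 and c-Myc (KSM) gave 4 libraries on day 3, with DR, Oct4, c-JunDN or Jdp2 added. All 4 KSM cultures, the DR control included, therefore carry Klf4, Sox2 and c-Myc. DR is used as the control vector in MEF and in KSM, and its name is not expanded in the labels. Every comparison with DR within a cell type shares the same single DR library. The labels do not say whether the inducible line is 1 clone or whether fibroblasts of several embryos were pooled.

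Wnt ligands bind Frizzled receptors with an Lrp co-receptor, which stops the breakdown of beta-catenin, and beta-catenin then acts with Tcf and Lef proteins on target genes. Axin2 and Nkd1 are widely used readouts of this pathway, and their products feed back to limit it. Secreted Sfrp and Wif1 proteins bind the ligand outside the cell, and Dkk proteins of the Dkk1 and Dkk2 kind act on the Lrp co-receptor. Wnt signals help to maintain mouse ESC, and fibroblasts are a common source of secreted Wnt antagonists.

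The start regions of 4 members are shown. Axin2 and Nkd1 are feedback genes whose levels were lower with Oct4 than in the other KSM libraries. Dkk2 was the 1 member called higher with c-Jun in MEF, and Sfrp2 carries a motif of an introduced factor. Each is the RefSeq sequence of the 250 bases before the annotated start on GRCm38.p6, 5′ to 3′ on the gene's strand, with any searched motif in capitals. Axin2 lies at chr11:108920099-108920348 (+), Nkd1 at chr8:88527383-88527632 (+), Dkk2 at chr3:132085042-132085291 (+) and Sfrp2 at chr3:83766071-83766320 (+).
Axin2: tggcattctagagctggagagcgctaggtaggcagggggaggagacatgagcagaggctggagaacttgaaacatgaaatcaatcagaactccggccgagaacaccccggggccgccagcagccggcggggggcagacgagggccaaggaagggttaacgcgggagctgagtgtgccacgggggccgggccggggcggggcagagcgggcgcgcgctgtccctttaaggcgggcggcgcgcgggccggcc
Nkd1: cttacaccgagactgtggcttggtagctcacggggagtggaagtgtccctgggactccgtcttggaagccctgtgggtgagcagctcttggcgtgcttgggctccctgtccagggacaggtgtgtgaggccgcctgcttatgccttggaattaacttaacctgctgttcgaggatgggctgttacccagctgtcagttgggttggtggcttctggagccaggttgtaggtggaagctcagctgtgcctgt
Dkk2: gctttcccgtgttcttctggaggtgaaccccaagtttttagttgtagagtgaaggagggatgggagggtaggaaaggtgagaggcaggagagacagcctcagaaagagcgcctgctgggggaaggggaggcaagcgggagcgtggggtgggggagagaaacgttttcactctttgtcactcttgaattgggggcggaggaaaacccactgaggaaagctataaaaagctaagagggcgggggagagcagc
Sfrp2: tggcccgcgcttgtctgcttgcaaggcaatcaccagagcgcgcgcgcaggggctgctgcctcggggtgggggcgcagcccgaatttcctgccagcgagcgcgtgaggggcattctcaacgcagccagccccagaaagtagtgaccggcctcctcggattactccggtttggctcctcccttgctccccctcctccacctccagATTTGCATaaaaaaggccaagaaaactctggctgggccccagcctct
The table of start regions matched 7 of the 10 members, with 10 windows, and Lgr5, Sfrp1 and Dkk3 were not among them. Searched on either strand, the AP-1 motif TGANTCA, bound by Jun dimers, was in 6.75% of the 32851 windows of the table, and the TCF/LEF motif CTTTGAT in 3.21%. Neither was in any of the members' windows. The cAMP response element TGACGTCA, in 1.55% of all windows, was not there either. The octamer ATGCAAAT, the motif of Oct4 and its relatives, was in 1.60% of all windows and in 1 member, Sfrp2, where it reads on the opposite strand 47 bases before the start. These matches and their lack describe the letters of these windows only.

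The libraries other than WT held between 1839333 and 3440958 expected counts, and the WT libraries held 12173140 (ESC) and 21415028 (MEF). Levels are normalized read counts (CPM) after scaling between libraries, and a count of 3, used as the floor, is worth 0.835 to 1.60 CPM outside the WT libraries. A gene was measured in a comparison when either library held at least 5 CPM of it. The call of higher or lower needed a 2-fold difference on the log2(CPM + 1) scale. A member at 5 CPM in 1 library only is measured through its higher side, so counts of called members are descriptions. Ratios are given with an exact 95% interval that covers counting error only. Each introduced factor's gene stood above its control in the library labelled with it, with the smallest ratio at 5.26 for Jun with c-JunDN in KSM. ESC markers summed to 1236 to 6514 CPM in ESC, and 8 fibroblast markers to 24480 to 83220 CPM in MEF. On day 3 of KSM the fibroblast sum was 4334 to 5711 CPM, with none of the 8 markers at 0. In bulk RNA, fewer cells of a type and less RNA per cell cannot be told apart.

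**Figure D1:**
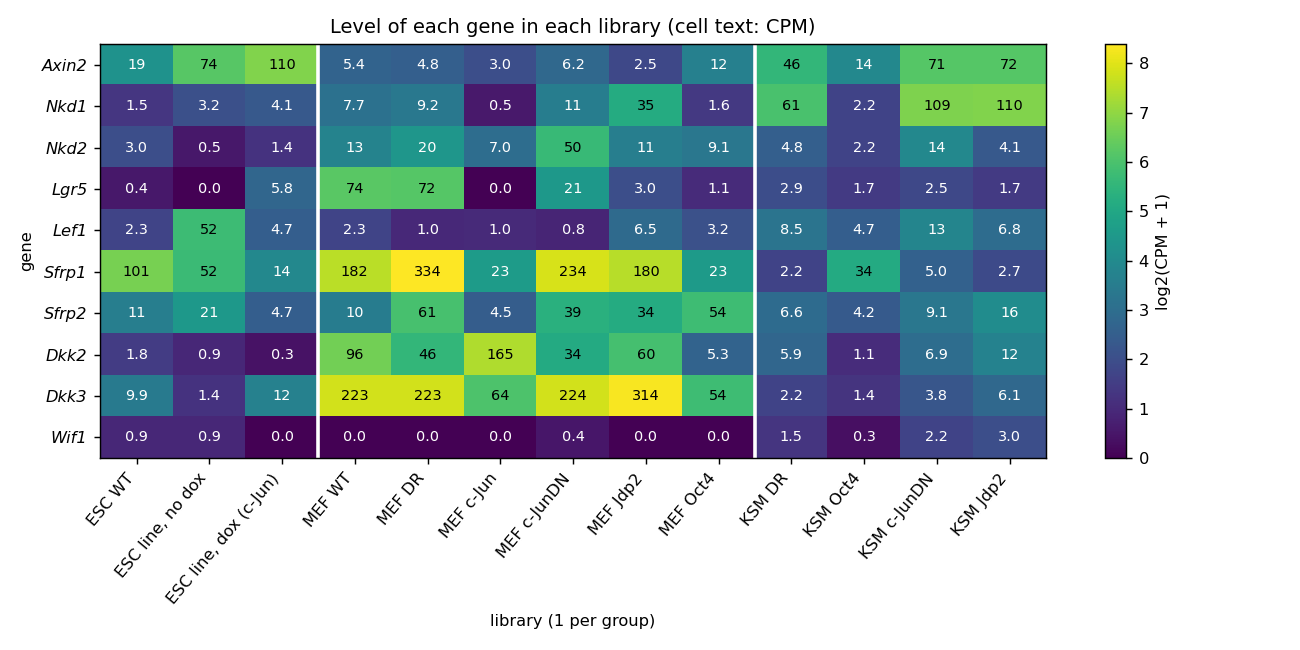
Level of each of the 10 genes (rows) in each of the 13 libraries (columns), coloured by log2(CPM + 1) with the CPM written in each cell and white lines between ESC, MEF and KSM. The secreted antagonists other than Wif1 were highest in MEF, where Sfrp1 reached 334 CPM with DR, while Axin2 and Nkd1 were highest in ESC with doxycycline (110.1 CPM) and KSM with Jdp2 (110.4 CPM).

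Axin2 encodes a scaffold of the beta-catenin destruction complex. In ESC it stood at 18.5 CPM (WT), 73.6 CPM (no doxycycline) and 110.1 CPM (doxycycline). In MEF it stood at 5.42 CPM (WT), 4.84 CPM (DR), 3.00 CPM (c-Jun), 6.15 CPM (c-JunDN), 2.50 CPM (Jdp2) and 11.7 CPM (Oct4). On day 3 of KSM it stood at 46.0 CPM (DR), 14.2 CPM (Oct4), 71.0 CPM (c-JunDN) and 71.6 CPM (Jdp2). All MEF levels were below all ESC and KSM levels, and in KSM the library with Oct4 was the lowest. Nkd1 encodes a Dishevelled-binding inhibitor. It was at 1.51, 3.16 and 4.07 CPM in the ESC libraries in the same order. In MEF it was at 7.74 CPM (WT), 9.19 CPM (DR), 0.50 CPM (c-Jun), 10.7 CPM (c-JunDN), 35.0 CPM (Jdp2) and 1.60 CPM (Oct4). In KSM it was at 61.5 CPM (DR), 2.23 CPM (Oct4), 108.7 CPM (c-JunDN) and 110.4 CPM (Jdp2). The KSM library with Oct4 thus lay with the low MEF and ESC libraries for Nkd1, and the other 3 KSM libraries were above all others.

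Nkd2, the paralogue of Nkd1, had its highest level in MEF with c-JunDN. It stood at 12.6 CPM (WT), 20.3 CPM (DR), 7.00 CPM (c-Jun), 49.6 CPM (c-JunDN), 11.0 CPM (Jdp2) and 9.05 CPM (Oct4) in MEF. In KSM it stood at 4.79 CPM (DR), 2.23 CPM (Oct4), 14.1 CPM (c-JunDN) and 4.05 CPM (Jdp2), and in ESC it was between 0.452 and 3.03 CPM. The c-JunDN library was the highest of its cell type in MEF and in KSM. Lef1, a DNA-binding partner of beta-catenin that is itself a Wnt target, was at 52.4 CPM in the uninduced ESC line. In WT ESC it was at 2.32 CPM and with doxycycline at 4.74 CPM. Elsewhere Lef1 lay between 0.821 CPM (MEF with c-JunDN) and 13.2 CPM (KSM with c-JunDN), so the uninduced line stands apart from all 12 other libraries.

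Lgr5, a receptor for R-spondins and a marker of several adult stem cells, was a gene of control fibroblasts here. It stood at 73.9 CPM in WT MEF and 72.1 CPM with DR. With c-JunDN it was at 21.3 CPM, with Jdp2 at 3.00 CPM, with Oct4 at 1.06 CPM and with c-Jun at 0 counts. In KSM it was between 1.67 and 2.94 CPM, and in ESC it was at 0.445 CPM (WT), 0 (no doxycycline) and 5.76 CPM (doxycycline). Both control MEF libraries were above every other library.

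Sfrp1 and Sfrp2 encode secreted Frizzled-related proteins. Sfrp1 was at 101.3 CPM (WT), 51.5 CPM (no doxycycline) and 14.2 CPM (doxycycline) in ESC. In MEF it was at 181.8 CPM (WT), 334 CPM (DR), 23.5 CPM (c-Jun), 234 CPM (c-JunDN), 179.9 CPM (Jdp2) and 22.9 CPM (Oct4). In KSM it was at 2.21 CPM (DR), 34.0 CPM (Oct4), 5.03 CPM (c-JunDN) and 2.70 CPM (Jdp2). The c-Jun and Oct4 libraries were the low ones in MEF, whereas in KSM the Oct4 library was the high one. Sfrp2 was at 10.5 CPM (WT), 60.9 CPM (DR), 4.50 CPM (c-Jun), 39.0 CPM (c-JunDN), 34.5 CPM (Jdp2) and 54.3 CPM (Oct4) in MEF. It lay between 4.74 and 21.2 CPM in ESC and between 4.17 and 15.9 CPM in KSM. Here WT and DR fibroblasts differed, and the MEF library with c-Jun was below both.

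Dkk2 and Dkk3 encode secreted Dickkopf proteins, and Dkk3 is the most distant member of that family. Dkk2 was at 96.2 CPM (WT), 46.4 CPM (DR), 165 CPM (c-Jun), 34.0 CPM (c-JunDN), 60.0 CPM (Jdp2) and 5.32 CPM (Oct4) in MEF. Dkk3 was at 223 CPM (WT), 223 CPM (DR), 64.5 CPM (c-Jun), 224 CPM (c-JunDN), 314 CPM (Jdp2) and 53.8 CPM (Oct4) in MEF. With c-Jun the pair separated, Dkk2 being the highest and Dkk3 the second lowest of the 6 MEF libraries, while with Oct4 both were the lowest. In KSM, Dkk2 was between 1.11 CPM (Oct4) and 12.2 CPM (Jdp2) and Dkk3 between 1.39 CPM (Oct4) and 6.08 CPM (Jdp2). In ESC, Dkk2 was under 2 CPM in all 3 libraries and Dkk3 stood at 9.89 CPM (WT), 1.36 CPM (no doxycycline) and 11.9 CPM (doxycycline). Wif1 was never measured: it had at most 10 counts in any library, and its highest level was 3.04 CPM in KSM with Jdp2.

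Levels of different genes can be set side by side only per transcript length, in the unit TPM. The 10 genes together made up 348 TPM in WT MEF, 467 TPM in MEF with DR, 76.3 TPM in WT ESC and 76.3 TPM in KSM with DR. The leading gene differed between libraries, also between the 2 control MEF libraries. It was Dkk3 in WT MEF (142 TPM, 40.8% of the sum), Sfrp1 in MEF with DR (169 TPM, 36.2%) and Sfrp1 in WT ESC (45.0 TPM, 59.0%). In KSM with DR it was Nkd1 (29.1 TPM, 38.2%), followed by Axin2 at 22.1 TPM. With c-Jun in MEF the sum was 165 TPM and Dkk2 made up 59.6% of it. With Oct4 in KSM the sum was 34.7 TPM, the lowest among the 12 libraries on the same gene models, and it was led by Sfrp1 at 15.4 TPM. MEF with Oct4 was quantified on other gene models and its TPM are left out of this order.

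In WT fibroblasts Lgr5, both Dkk genes and both Nkd genes were higher than in WT stem cells, and Axin2 was lower. Of 8 measured members, 4 of which reached 5 CPM in both libraries, 5 were higher and 1 lower in MEF. Over all measured genes, 24.3% were higher and 29.4% lower. Lgr5 was 166-fold higher (70.9 to 512, from 5 counts in ESC), Dkk2 54.0-fold (34.8 to 88.6) and Dkk3 22.6-fold (18.7 to 27.5). Nkd1 was 5.11-fold higher (3.07 to 9.05) and Nkd2 4.14-fold (2.87 to 6.15), while Axin2 was 3.42-fold lower (2.65 to 4.43). Sfrp1 and Sfrp2 were not called, at 1.79-fold higher (1.68 to 1.92) and 1.05-fold lower (0.823 to 1.33). WT ESC also held 4584 CPM of the 8 fibroblast markers, with none at 0, against 1744 CPM in the uninduced line. Fn1 alone gave 3107 and 1566 CPM of these sums. In the uninduced line 6 of the 8 were called lower than in WT ESC and none higher, against 18.3% and 6.17% of all measured genes. The median log2 difference of the 8 was -3.52, and Col1a1 stood at 6.33 against 441 CPM. The part of these markers in the ESC levels of Sfrp1 and Dkk3 was not tested.

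In the inducible ESC line, 36 h of doxycycline went with lower Lef1, Sfrp1 and Sfrp2 and higher Lgr5 and Dkk3. The study used this pair to ask how c-Jun moves ESC toward differentiation. Of 6 measured members, 2 were called higher and 3 lower, against 21.5% of all measured genes higher and 18.9% lower, and 4 of these 5 reached 5 CPM on 1 side only. Lef1 was 11.0-fold lower (6.33 to 20.8), Sfrp2 4.48-fold lower (2.42 to 8.80) and Sfrp1 3.62-fold lower (2.52 to 5.29). Lgr5 was at least 4.25-fold higher, from 0 to 17 counts, and Dkk3 8.75-fold higher (2.76 to 44.5, from 3 counts). Axin2 was 1.50-fold higher (1.24 to 1.82), which is larger than counting error but was not called. Epithelial markers summed to 4571 CPM with doxycycline against 554 CPM without, with all 5 present in both. All 8 ESC markers were lower with doxycycline, with sums of 1236 against 6514 CPM and a median log2 difference of -2.74. Macrophage markers summed to 114.5 against 11.3 CPM, with Emr1, C1qa, C1qb, C1qc and Lyz2 at 0 in both. Fibroblast markers summed to 1755 against 1744 CPM, with 3 of 6 measured called higher and 1 lower. Among them Col1a1 stood at 471 against 6.33 CPM and Fn1 at 596 against 1566 CPM. The part of these markers in the differences was not tested.

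The choice of ESC control matters for 3 of these genes. Without doxycycline the line already differed from WT ESC, with 2 members higher and 1 lower among 5 measured against 6.17% of all measured genes higher and 18.3% lower. Of these 5, 3 reached 5 CPM in both libraries. Lef1 was 22.6-fold higher (14.7 to 36.1) and Axin2 3.97-fold higher (3.22 to 4.90) in the uninduced line, while Dkk3 was 7.30-fold lower (2.43 to 35.9, from 3 counts). Set against WT ESC, the doxycycline library had a Lef1 level 2.05-fold higher (0.989 to 4.07), in the other direction and below the level needed to be measured. Dkk3 was then 1.20-fold higher (0.796 to 1.77) and not called, and Axin2 was 5.94-fold higher (4.98 to 7.11) and called. Sfrp1 was 7.12-fold lower (5.23 to 9.93), Sfrp2 2.31-fold lower (1.33 to 4.35) and Lgr5 12.9-fold higher (4.58 to 44.8), so these 3 calls had the same direction against either control. In that comparison, with 2 members higher and 2 lower of 5 measured, 14.6% of all measured genes were higher and 22.6% lower. Line and culture cannot be told apart from any other difference between these libraries.

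Among the other Wnt genes, most of those measured for ligands and their secretion were called higher after doxycycline, each from under 5 CPM. A list of 94 further genes of the pathway was divided into ligands and their secretion, receptors and agonists, other antagonists and feedback genes, transduction and other targets. In ESC, 26 of 66 measured were called higher and 14 lower, against 21.5% and 18.9% of all measured genes. Of 14 measured in the list of ligands and their secretion, 11 were higher, Wls among them. Wnt7a stood at 43.0 against 0.452 CPM and Wnt4 at 39.7 CPM against 0 counts. All 11 were under 5 CPM without doxycycline and were measured through the doxycycline library only, so the filter favoured this direction. Porcn, needed for ligand secretion, was 7.24-fold lower (5.08 to 10.6), at 12.5 against 90.8 CPM, but WT ESC held 8.73 CPM, so its direction turns with the control. Against WT ESC, 10 of 13 measured in the same list were higher and none was lower, against 14.6% and 22.6% of all measured genes. All of the 10 except Wnt7b, at 19.4 CPM, were under 5 CPM in WT ESC. Among other antagonists Dkk1 was 20.3-fold higher (5.34 to 171, from 2 counts). The median log2 difference was 0.55 over the measured pathway genes, -0.61 over the 6 measured members and -0.07 over all measured genes.

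**Figure D2:**
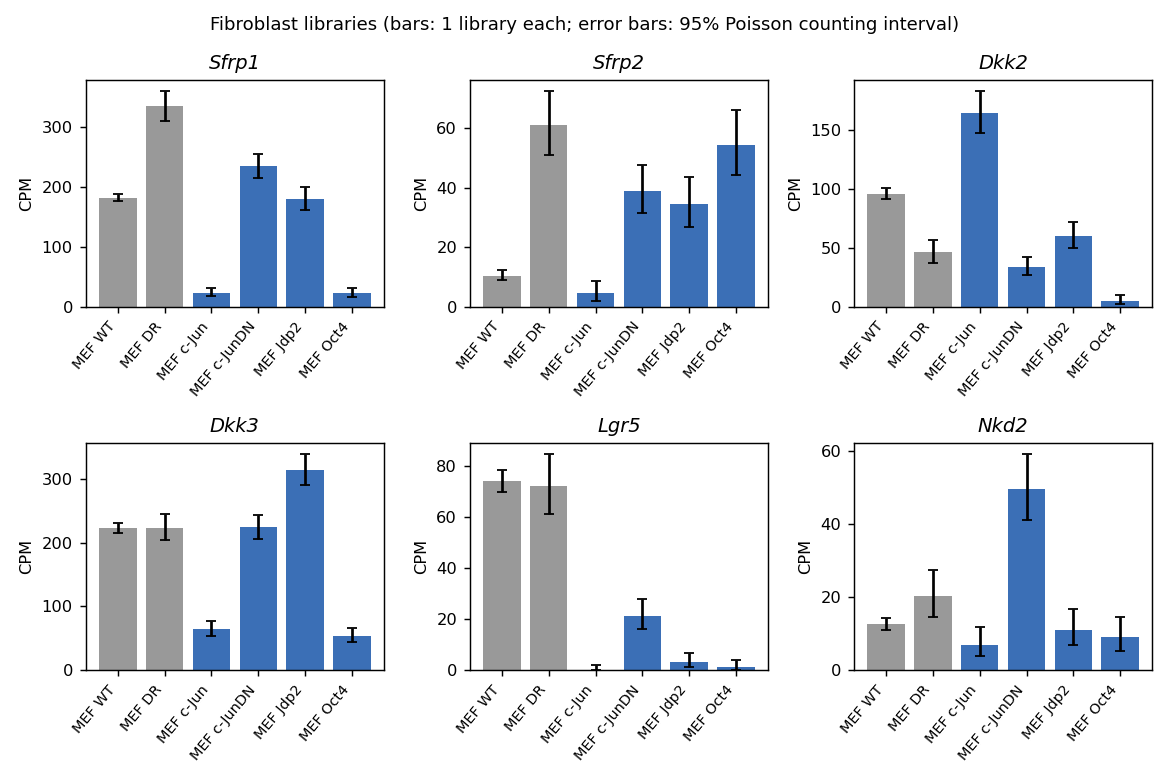
CPM of 6 members in the 6 MEF libraries, as 1 bar per library with a 95% Poisson interval of its count, grey for WT and DR and blue for the introduced factors. With c-Jun, Dkk2 stood at 165 CPM, above all other MEF libraries, while Sfrp1, Dkk3 and Lgr5 were far below both controls. With c-JunDN, Nkd2 was the highest of the 6 at 49.6 CPM.

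In fibroblasts given c-Jun, the antagonists Sfrp1, Sfrp2 and Dkk3, both Nkd genes and Lgr5 were lower than with DR, while Dkk2 was higher. Of 7 measured members, 4 of which reached 5 CPM in both libraries, 1 was higher and 6 were lower, against 7.75% of all measured genes higher and 9.54% lower. Sfrp1 was 14.2-fold lower (10.6 to 19.5), Sfrp2 13.5-fold lower (6.91 to 30.3) and Dkk3 3.46-fold lower (2.84 to 4.25). Lgr5 was at least 48.1-fold lower, from 149 counts to 0 (33.8 to 0 TPM). Nkd1 was 18.4-fold lower (2.92 to 764), resting on 1 count with c-Jun, and Nkd2 was 2.90-fold lower (1.55 to 5.75). Dkk2 was 3.55-fold higher (2.82 to 4.51). Axin2, Lef1 and Wif1 were not measured.

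Against WT MEF, c-Jun gave 5 lower members and none higher among 8 measured, with 11.0% of all measured genes higher and 13.7% lower. Dkk2 was then 1.72-fold higher (1.52 to 1.93), larger than counting error but not called. Nkd2 was 1.79-fold lower (1.05 to 3.34) and also not called. The directions of Sfrp1 at 7.74-fold lower (5.80 to 10.6), Sfrp2 at 2.33-fold (1.20 to 5.18), Dkk3 at 3.46-fold (2.90 to 4.16), Nkd1 at 15.5-fold (2.73 to 616) and Lgr5 at no less than 49.3-fold were those seen against DR. The DR library itself had 5.81-fold more Sfrp2 (4.58 to 7.36) and 2.07-fold less Dkk2 (1.69 to 2.57) than WT MEF, the only 2 of 8 measured members called there, with 9.56% of all measured genes higher and 10.4% lower. For Lgr5 the 2 controls were 1.03-fold apart (0.865 to 1.22) and for Dkk3 both stood at 223 CPM.

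Beyond the 10 genes, the R-spondin genes Rspo2 and Rspo3 were lower and the ligand gene Wnt2b higher with c-Jun in MEF. Of 60 measured pathway genes, 7 were higher and 12 lower. Rspo2, an agonist that binds Lgr receptors, was 66.8-fold lower (11.6 to 2675, resting on 1 count) and Rspo3 7.74-fold lower (2.75 to 30.1). Wnt2b was 38.4-fold higher (17.4 to 105.8). None of the 4 measured genes in the list of other antagonists and feedback was called. The median log2 difference was -0.06 over these pathway genes, -2.76 over the 7 measured members and 0.00 over all measured genes. Fibroblast markers summed to 24480 CPM with c-Jun and 50069 CPM with DR, with none at 0 in either. Of the 8 fibroblast markers, 4 were called lower and none higher. Macrophage markers summed to 131 CPM with c-Jun and 87.5 CPM with DR, again with none at 0, but they did not move together. Csf1r stood at 73.0 against 4.35 CPM and Cd14 at 27.0 against 6.29 CPM, while Lyz2 stood at 23.0 against 60.9 CPM and Emr1, C1qa, C1qb and C1qc were each at or under 1.00 CPM with c-Jun. The part of these cell markers in the differences was not tested.

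The dominant-negative form left most members near the DR level. With c-JunDN, 1 of 8 measured members, 7 of them at 5 CPM in both libraries, was higher and 1 lower, against 3.25% of all measured genes higher and 2.71% lower. Nkd2 was 2.44-fold higher (1.71 to 3.56) and Lgr5 3.38-fold lower (2.45 to 4.73). Sfrp1 was 1.43-fold lower (1.28 to 1.60) and Sfrp2 1.56-fold lower (1.19 to 2.06), outside counting error but not called. Dkk3 stood at 1.00-fold (0.886 to 1.14). Against WT MEF the same 2 genes were called in the same directions, at 3.95-fold higher (3.13 to 4.97) for Nkd2 and 3.47-fold lower (2.63 to 4.67) for Lgr5. Sfrp2 and Dkk2 were called as well in that comparison, at 3.72-fold higher (2.86 to 4.80) and 2.82-fold lower (2.26 to 3.57), with 10.6% of all measured genes higher and 10.9% lower. Of 61 other pathway genes, 7 were higher and 2 lower than with DR, among them Frzb, another secreted antagonist, at 11.5-fold higher (5.86 to 25.8).

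Set directly against c-JunDN, c-Jun left Dkk2 higher and 6 of 8 measured members lower, with 7.84% of all measured genes higher and 10.2% lower. Of the 8, 4 reached 5 CPM in both libraries. This comparison was chosen after the values were seen. All 8 macrophage markers reached 5 CPM with c-JunDN, where they summed to 178 CPM and 4 were higher than with DR, and their part was not tested.

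Jdp2, a repressor that pairs with Jun proteins, went with higher Nkd1 and lower Lgr5 in MEF. Of 8 measured members, 6 of them at 5 CPM in both libraries, 2 were higher and 1 lower than with DR, against 5.81% of all measured genes higher and 6.32% lower. Nkd1 was 3.81-fold higher (2.27 to 6.69) and Lgr5 24.0-fold lower (10.8 to 66.5). Lef1 was 6.72-fold higher (1.52 to 61.3), resting on 2 counts with DR. Sfrp1 was 1.86-fold lower (1.63 to 2.12) and Dkk3 1.40-fold higher (1.24 to 1.59), neither of them called. Against WT MEF, Nkd1 (4.52-fold, 3.33 to 6.10), Lef1 (2.80-fold, 1.37 to 5.38) and Sfrp2 (3.29-fold, 2.45 to 4.37) were higher and Lgr5 (24.7-fold, 11.3 to 67.3) was lower, with 11.9% of all measured genes higher and 14.5% lower. Of 57 other pathway genes, 5 were higher and 5 lower than with DR. Rspo3 was 3.68-fold higher (2.47 to 5.63), the receptor gene Fzd8 3.03-fold higher (1.98 to 4.75) and Lgr4, a relative of Lgr5, 3.49-fold lower (2.47 to 5.01). Macrophage markers summed to 36.0 CPM against 87.5 CPM with DR, with both measured ones lower and none at 0. Fibroblast markers summed to 45821 against 50069 CPM, with Postn called higher at 6977 against 1351 CPM and Vim called lower at 1236 against 3218 CPM. The part of these markers was not tested.

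With Oct4 in MEF, Axin2 was higher and most of the other members lower than with DR. Of 8 measured members, 6 of them at 5 CPM in both libraries, 1 was higher and 6 were lower, against 11.6% of all measured genes higher and 10.2% lower on the gene names shared by both tables. On those names DR held 5.16 CPM of Axin2, and the Oct4 library was 2.27-fold higher (1.03 to 5.37, 22 against 10 counts). Sfrp1 was 15.6-fold lower (11.4 to 21.7), Dkk2 9.30-fold lower (4.84 to 20.0) and Dkk3 4.43-fold lower (3.56 to 5.55). Lgr5 was 72.1-fold lower (19.6 to 601, resting on 2 counts), but in TPM it stood at 3.93 against 33.8, a smaller difference of -2.82 on the log2(TPM + 1) scale. Nkd1 was 6.13-fold lower (1.81 to 32.4, resting on 3 counts) and Nkd2 2.39-fold lower (1.33 to 4.48). Sfrp2, the member with the octamer in its start region, was 1.20-fold lower (0.914 to 1.57) and not called.

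Against WT MEF, the same library had 1 member higher and 5 lower, with 14.6% of all measured genes higher and 14.8% lower. There Axin2 was 2.02-fold higher (1.21 to 3.25) and not called, because its difference on the log2(CPM + 1) scale was 0.90. Sfrp2 was 4.85-fold higher (3.76 to 6.23) and became the called gene in that direction. Among 59 other pathway genes, 9 were higher and 12 lower than with DR. Of 5 measured genes of the list of other antagonists and feedback, 4 were higher, among them Sfrp4 at 408 against 44.8 CPM and Apcdd1 at 185.8 against 26.8 CPM. The median log2 difference was -2.09 over the 8 measured members, -0.04 over the other pathway genes and 0.01 over all measured genes. Macrophage markers summed to 294 CPM with Oct4 against 87.5 CPM with DR, 7 of 8 were called higher and none was at 0. Fibroblast markers summed to 33065 CPM against 50069 CPM, with 5 of 8 lower, among them Col1a1 at 4019 against 11350 CPM, and 3 higher. The DR levels of the macrophage and fibroblast markers are on all names of the DR table, while the calls use shared names. The part of these markers in the differences was not tested. This library was deposited on other gene models than the rest, and that difference and the factor cannot be told apart.

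On day 3 of KSM, Axin2, Nkd1 and Lef1 were higher than in MEF, both with DR, and Nkd2, Lgr5, Sfrp1, Sfrp2, Dkk2 and Dkk3 were lower. Of 9 measured members, 3 of which reached 5 CPM in both libraries, 3 were higher and 6 lower in KSM, against 18.1% of all measured genes higher and 20.1% lower. Axin2 was 9.52-fold higher (5.01 to 20.3), Nkd1 6.69-fold (4.15 to 11.4) and Lef1 8.75-fold (2.16 to 76.6, resting on 2 counts in MEF). Sfrp1 was 151-fold lower (69.2 to 414) and Dkk3 101-fold lower (46.1 to 277). Lgr5 was 24.5-fold lower (12.1 to 57.7), Sfrp2 9.20-fold (5.59 to 16.0), Dkk2 7.88-fold (4.61 to 14.3) and Nkd2 4.24-fold (2.23 to 8.62). Of 62 other pathway genes, 11 were higher and 24 lower, and in the list of other antagonists and feedback 3 of 5 measured were higher and 1 lower. Notum, whose product removes the lipid from Wnt ligands, had 249 counts in KSM and 0 in MEF, at least 63.2-fold higher. Apcdd1, a membrane-bound Wnt inhibitor, was 5.24-fold higher (3.91 to 7.15), and Tcf7, a partner of beta-catenin, 162-fold higher (28.8 to 6434, resting on 1 count in MEF). Epithelial markers summed to 719 CPM in KSM and 16.4 CPM in MEF, where Epcam and Cdh1 were at 0, and all 5 were called higher. Fibroblast markers summed to 4808 CPM in KSM and 50069 CPM in MEF, with 7 of 8 lower and a median log2 difference of -4.75. The part of these markers in the differences was not tested, and KSM, time and culture cannot be told apart.

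**Figure D3:**
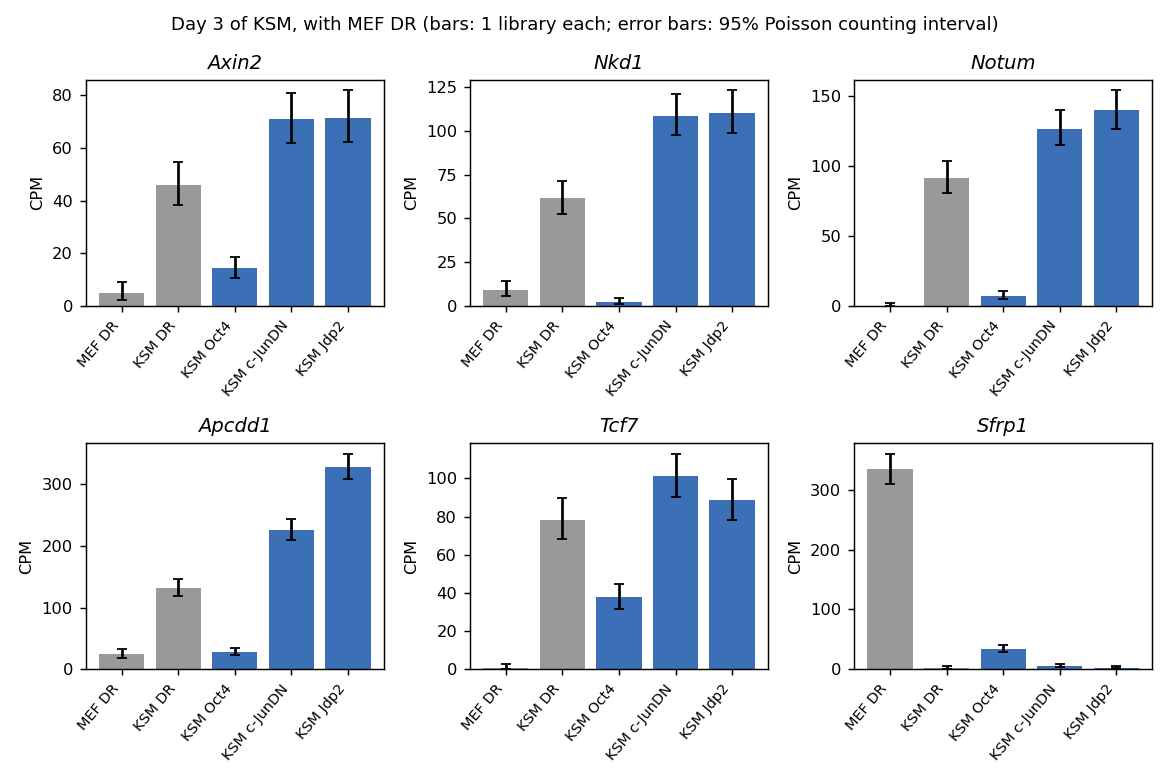
CPM of Axin2, Nkd1 and Sfrp1 and of the 3 other pathway genes Notum, Apcdd1 and Tcf7 in MEF with DR and in the 4 KSM libraries, as 1 bar per library with a 95% Poisson interval of its count, grey for DR. In KSM the Oct4 library was the lowest for all but Sfrp1, where it was the highest at 34.0 CPM, and the c-JunDN and Jdp2 bars overlapped for Axin2 and Nkd1.

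The KSM comparison addressed which changes accompany Oct4, c-JunDN and Jdp2. Whether c-JunDN or Jdp2 can stand in for Oct4 was not tested here. Adding Oct4 to KSM went with much lower Nkd1 and Axin2 and with higher Sfrp1. Of 6 measured members, 1 was called higher and 3 lower, against 4.65% of all measured genes higher and 6.68% lower, and 1 of the 6 reached 5 CPM on both sides. Nkd1 was 27.6-fold lower (13.7 to 65.0), Axin2 3.24-fold lower (2.32 to 4.58) and Dkk2 5.29-fold lower (1.71 to 21.7, 4 against 16 counts). Sfrp1 was 15.4-fold higher (6.86 to 42.7), from 6 to 122 counts. Lef1 and Sfrp2 were 1.79-fold lower (0.915 to 3.57) and 1.59-fold lower (0.755 to 3.38), within counting error. Nkd2, Lgr5, Dkk3 and Wif1 were not measured.

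Notum and Apcdd1, feedback genes like Axin2 and Nkd1, were also lower with Oct4, while Lgr4, Fzd5 and Tcf7l1 were higher. Of 54 other pathway genes measured, 7 were higher and 9 lower, and in the list of other antagonists and feedback 1 of 5 measured was higher and 2 were lower. Notum was 12.7-fold lower (8.44 to 19.8), Lgr6, an R-spondin receptor, 5.98-fold lower (4.33 to 8.42), Apcdd1 4.64-fold lower (3.72 to 5.84) and Tcf7 2.07-fold lower (1.66 to 2.59). Lgr4 was 4.40-fold higher (3.42 to 5.73), the receptor gene Fzd5 11.5-fold higher (6.96 to 20.5) and Tcf7l1, which encodes a repressive Tcf protein, 4.43-fold higher (2.81 to 7.32). Sfrp4 was at least 7.56-fold higher, from 0 counts. The median log2 difference was -1.18 over the 6 measured members, -0.20 over the other pathway genes and 0.07 over all measured genes. Epithelial markers summed to 112 CPM with Oct4 against 719 CPM with DR, with none at 0. Krt8, Krt18 and Krt19 were called lower, while Epcam stood at 22.0 against 13.3 CPM and Cdh1 at 37.6 against 30.2 CPM. Of the 8 fibroblast markers 2 were lower and none higher. Of 3 measured ESC markers 2 were higher, namely Pou5f1, the introduced Oct4 gene itself, and Zfp42 at 5.84 against 0.736 CPM. Sox2, also an introduced factor, was not called, and Nanog, Esrrb, Dppa5a, Tdgf1 and Utf1 were not measured. The part of these markers was not tested.

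With c-JunDN in KSM, Nkd2 was the 1 member called higher of 7 measured and none was lower, against 1.81% of all measured genes higher and 1.62% lower. Nkd2 was 2.95-fold higher (1.57 to 5.97). It reached 5 CPM with c-JunDN only, whereas 5 of the 7 reached it in both libraries. Nkd1 was 1.77-fold higher (1.47 to 2.14) and Axin2 1.54-fold higher (1.23 to 1.94), both outside counting error but not called. Sfrp1 was 2.28-fold higher (0.846 to 7.10, 16 against 6 counts), within counting error. Of 56 other pathway genes, 2 were higher and 1 lower. The epithelial sum was 285 CPM in this library, with 2 of the 5 markers lower and none at 0, and 1 of 8 fibroblast markers was higher. Their part was not tested.

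With Jdp2 in KSM, Sfrp2 and Dkk3 were called higher of 6 measured members and none was lower, against 2.68% of all measured genes higher and 1.31% lower. Sfrp2 was 2.39-fold higher (1.36 to 4.38) and Dkk3 2.75-fold higher (1.05 to 8.47, 18 against 6 counts). Dkk3 reached 5 CPM with Jdp2 only, whereas 5 of the 6 reached it in both libraries. Nkd1 and Axin2 were 1.80-fold (1.49 to 2.18) and 1.56-fold (1.24 to 1.96) higher, and not called. Dkk2 was 2.06-fold higher (1.12 to 3.98) but fell short on the log2(CPM + 1) scale. Of 54 other pathway genes, 5 were higher and 1 lower, among them Apcdd1 at 2.49-fold higher (2.21 to 2.82) and Rnf43, whose product removes Frizzled from the surface, at 4.69-fold higher (2.27 to 10.9). Fibroblast markers summed to 5711 CPM against 4808 CPM with DR, and 2 of 8 were called higher, Col1a2 at 783 against 322 CPM and Fn1 at 1304 against 633 CPM, with a median log2 difference of 0.81. The epithelial sum was 592 CPM against 719 CPM with DR, with none at 0, and Krt8 stood at 379 against 515 CPM. Of the 5 epithelial markers, 1 was called higher and none lower, with a median log2 difference of 0.55. The part of these markers was not tested either.

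A further 3 comparisons among the KSM libraries were chosen after the values were seen. Between c-JunDN and Jdp2, Axin2 was 1.01-fold apart (0.832 to 1.22) and Nkd1 1.02-fold apart (0.870 to 1.18), both within counting error. Nkd2 was 3.49-fold higher with c-JunDN (1.82 to 7.25), the 1 of 8 measured members called, where 0.658% of all measured genes were higher and 1.63% lower. It reached 5 CPM with c-JunDN only. Against Oct4, the c-JunDN library had 5 members higher and 1 lower of 7 measured, with 7.38% of all measured genes higher and 3.74% lower. Of these 7, 2 reached 5 CPM in both libraries. All members called higher except Axin2 reached it with c-JunDN only. Nkd1 was 48.8-fold higher (24.5 to 114), Nkd2 6.35-fold (2.96 to 15.6), Axin2 5.00-fold (3.68 to 6.92) and Lef1 2.79-fold (1.55 to 5.23), while Sfrp1 was 6.75-fold lower (4.00 to 12.2). Against Oct4, the Jdp2 library also had 5 higher and 1 lower of 7, with 9.02% of all measured genes higher and 4.82% lower. Here 1 of the 7 reached 5 CPM in both libraries, and all members called higher except Axin2 reached it with Jdp2 only. Nkd1 was 49.6-fold higher (24.9 to 115.8), Axin2 5.04-fold (3.70 to 6.99) and Sfrp2 3.80-fold (2.09 to 7.32), and Sfrp1 was 12.6-fold lower (6.18 to 29.8). The 2 comparisons share the Oct4 library.

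**Figure D4:**
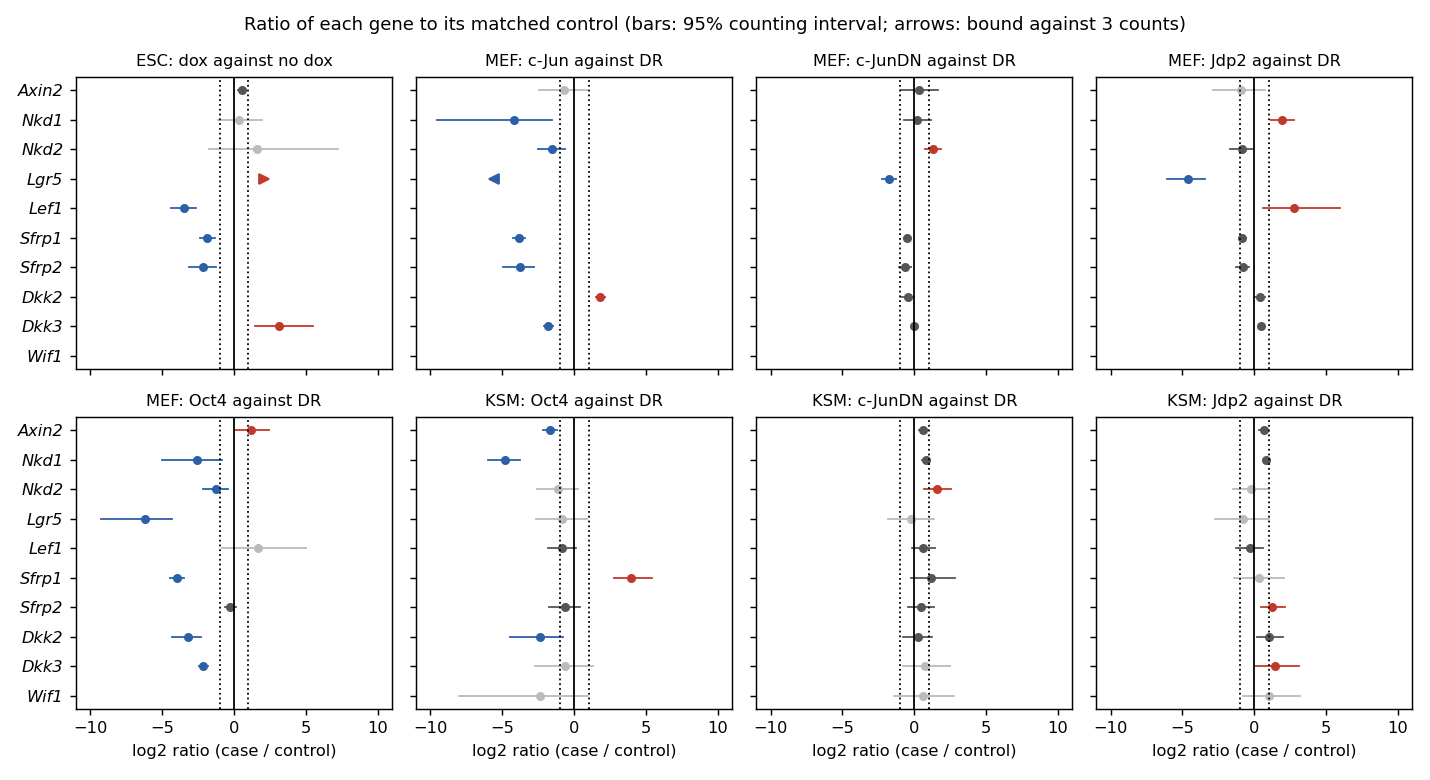
Ratio of each member to its matched control on a log2 axis in the 8 comparisons, with points for the ratio, bars for its 95% counting interval and arrows for bounds against 3 counts. Red is called higher, blue called lower, dark grey measured but not called and light grey not measured, and dotted lines mark 2-fold. Lgr5 was lower in all 4 MEF panels, and Sfrp1 stood on opposite sides with Oct4 in MEF and in KSM.

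Across 12 libraries on the same gene models, the genes whose log2 level ran most like each member's were found among 11296 genes of at least 10 CPM in some library. The libraries share cell type, depth and controls, so these correlations are descriptions. For Axin2 the most alike gene was Notum (Pearson r = 0.962), a feedback gene of the same pathway, followed by Puf60, which encodes a splicing factor (0.944). For Nkd1 they were Ctns, the lysosomal cystine transporter (0.932), and Entpd2, an ectonucleotidase (0.912). For Dkk2 they were Inhba, which encodes an activin subunit (0.981), and the syndecan Sdc3 (0.966), and for Dkk3 the most alike gene was the kinase gene Camk1 (0.980). Between members, Dkk2 and Dkk3 had r = 0.816 despite their opposite sides with c-Jun in MEF, Axin2 and Dkk3 had r = -0.81, and Axin2 and Nkd1 had r = 0.316. In ESC, Axin2 stood between 18.5 CPM (WT) and 110.1 CPM (doxycycline) while Nkd1 was at or under 4.07 CPM.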

How the data were processed

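Per the labels' protocols, Trizol was used for RNA and a TruSeq kit for the libraries. Per the submitters' processing notes, genes were quantified with RSEM 1.1.21 on mm9, and the aligner is not given in the sources used here. The deposited expected counts are the authors' RSEM estimates per gene and were rounded here to whole numbers. The authors also deposited a fraction of transcripts per gene in 12 libraries, and TPM in MEF with Oct4, which were used here as TPM. That library lists 27729 Ensembl IDs, and a symbol was found for 27247. Of the 20325 names of the other libraries 19681 were shared, 1717 of them through a synonym, with 96.98% of its counts. Its ratios and calls use shared names on both sides, while the DR marker levels set beside it use all names. Its FPKM, and the peaks, were not analysed here.

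Counts were scaled by TMM in edgeR 4.0.16 (R 4.3.3) to CPM. A difference is that of log2(CPM + 1), and 5 CPM and 2-fold are the limits. Ratios carry exact conditional binomial 95% intervals. With 0 counts on 1 side the ratio is a bound against 3 counts in that library, and with both at or under 3 none is given. Calls and intervals were checked on simulated Poisson counts in the comparisons with matched controls other than MEF with Oct4. Such counts carry no variation between replicates, and the intervals assume the same noise, so the check says nothing of biological spread. The members, lists and thresholds were chosen with earlier results of these data known, and 4 comparisons and 2 motifs (TGACGTCA, ATGCAAAT) were added after values were seen. Of 96 names in the pathway lists 2 were absent. By rule, all members are given, with up to 3 called genes per pathway list, direction and comparison to name from and the 2 most alike genes per member, of which the text gives a part. Start regions come from RefSeq on GRCm38.p6. The alternatives were total-count and RLE scaling, a pseudocount of 0.5, no low filter or 10 CPM, TPM, WT as control, and identical symbols only for MEF with Oct4.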

Additional observations from a re-analysis of the deposited data

Results flagged for a closer look

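A total of 4 members were called in opposite directions for the same introduced factor in different cell types, and in each case the difference between the cell types was not tested. All values are differences of log2(CPM + 1) from the matched control. With c-Jun, Lgr5 was higher by 2.76 in ESC (17 counts against 0) and differed by -6.19 in MEF (0 counts against 149). With c-Jun, Dkk3 was higher by 2.45 in ESC and differed by -1.78 in MEF. The ESC value of Dkk3 was not called against WT ESC (0.24), while its MEF value was -1.77 against WT MEF. With Oct4, Axin2 was higher by 1.05 in MEF, where it rests on 22 and 10 counts, and differed by -1.63 in KSM. The MEF value of Axin2 was not called against WT MEF (0.90). With Oct4, Sfrp1 differed by -3.90 in MEF and was higher by 3.45 in KSM. The Oct4 libraries themselves stood at 22.9 CPM (MEF) and 34.0 CPM (KSM) of Sfrp1. The DR libraries held 356 CPM (MEF, on shared names) and 2.21 CPM (KSM) of it. Each pair of libraries has 1 control, and in ESC c-Jun came from an inducible line and in MEF from overexpression, so delivery and cell type cannot be told apart.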

How the results depend on the processing

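With 1 library per group there is no replicate spread, and leaving out a replicate was not possible. Depth limits low genes, since 3 counts are worth up to 1.60 CPM, and the minimum of 5 CPM was a chosen filter. No paired analysis was possible because each group has 1 library and the results come from no test. With WT as control, the Lef1 difference in ESC with doxycycline turned from -3.22 to 0.79, and the members called with c-JunDN in MEF went from 2 to 4. With a pseudocount of 0.5, 2 members were called with c-JunDN in KSM in place of 1. With Jdp2 in KSM, 1 member was called with a minimum of 10 CPM and 1 on the TPM scale, in place of 2, and 3 with total-count scaling. The count for the other 5 comparisons stayed within 1.5 times under every alternative run, from 4 to 5 with doxycycline, 5 to 7 with c-Jun, 2 to 4 with Jdp2 in MEF, 6 to 8 with Oct4 in MEF and 3 to 4 with Oct4 in KSM. Single members kept their direction under total-count and RLE scaling, except Dkk3 with c-JunDN in MEF, which stood at 0.01 and at -0.02 under RLE. With WT as control, the uncalled differences of Sfrp1 with c-JunDN in MEF, of Sfrp2 with c-JunDN, Jdp2 and Oct4 and of Dkk2 with Jdp2 also changed sign, to 0.36, 1.80, 1.63, 2.18 and -0.67. On the TPM scale Lgr5 moved to -5.12 with c-Jun and -2.82 with Oct4 in MEF, and Axin2 to 0.93 in ESC. Scaling moved the median of all genes in ESC by 0.20 (total count) and 0.36 (TPM), and in MEF with Oct4 by 0.19 and in KSM with Jdp2 by 0.10 (TPM). The share of called genes that were higher went from 53.2% to 64.5% and 72.5% in ESC and from 53.2% to 67.6% in MEF with Oct4. Counts over all genes moved by over 1.5 times as follows. In ESC, lower genes went from 2108 to 1141 (TPM). Without the low filter, higher genes went from 358 to 672 and lower from 299 to 466 with c-JunDN in MEF, and higher genes from 644 to 996 with Jdp2 in MEF and from 500 to 792 with Oct4 in KSM. In KSM they went from 194 to 459 higher and 174 to 303 lower with c-JunDN, and from 288 to 684 higher and 141 to 266 lower with Jdp2. At 10 CPM, higher genes fell to 92 with c-JunDN and 168 with Jdp2 in KSM, and lower genes to 89 with Jdp2. With WT as control, c-JunDN in MEF had 1170 higher and 1205 lower genes, and Jdp2 in MEF 1316 higher and 1609 lower, from 644 and 700.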
